A study of Mus musculus with 25 samples.

Results

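Transcripts of 8 genes that set how strongly fat cells respond to noradrenaline were followed in pgWAT, the perigonadal fat depot that lies beside the epididymis. They were 3 adrenergic receptors (Adrb1, Adrb3 and Adra2a), 3 phosphodiesterases (Pde3b, Pde4b and Pde4d) and 2 subunits of protein kinase A (Prkar2b and Prkaca). The members were all probes that the array files name for one of these genes, which gave 24 probes of the 56605 distinct gene probes on the array and 8 of its 37074 gene names. Of the 24 probes, 17 passed the filter on dim spots and were tested, at least 1 for each gene. The other 7, of which 4 belonged to Pde4b and 3 to Pde4d, were not tested.

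RNA came from 25 male C57BL6/J mice, 1 single-colour Agilent array each, which had fasted for 24 h and were then refed for 18 h with food and water holding 20% glucose, a regimen chosen to activate ChREBP, a transcription factor that responds to glucose and is the product of Mlxipl. In ChREBPβ KO (6 arrays) CRISPR had removed Mlxipl exon 1b and with it only the short ChREBPβ isoform, and ChREBPβ WT (7 arrays) were its wild types. The paper derived more than 1 such line in this strain, and the sample titles do not say which was used. These arrays are together called the ChREBPβ line below. From a separate, Mlxipl-null line, whose knockouts lack both ChREBPα and ChREBPβ, came 7 total ChREBP WT and 5 total ChREBP KO arrays. Both deletions were present in every cell of the body, and the ages of the mice were not given in the sources used here. The wild types were of different lines, so line, colony and litter cannot be told apart between them.

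Noradrenaline released from sympathetic nerves acts on fat cells through receptors of opposite sign. The β-adrenergic receptors, of which the β3 receptor is the form characteristic of rodent fat cells, couple to Gs and raise cyclic AMP, whereas the α2A receptor couples to Gi and lowers it. Cyclic AMP binds the regulatory subunits of protein kinase A and frees its catalytic subunits, which phosphorylate perilipin and hormone-sensitive lipase and so start lipolysis. Phosphodiesterases end the signal, and phosphodiesterase 3B is the enzyme through which insulin restrains lipolysis.

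A probe reports only the stretch of transcript it matches, so the probes that carry the differences between groups are shown with their positions in the mm9 build. The Adrb3 probe A_55_P2105685 (chr8:28337864-28337923, minus strand) is shown because it gave a second reading of the largest difference among the members. Its capitals mark the start of the stretch that encodes the NPxxY motif of the last transmembrane helix, common to receptors of this family, and the probe ends before the tyrosine codon is complete.
Adrb3: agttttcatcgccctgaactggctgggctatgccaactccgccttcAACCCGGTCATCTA

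The Pde3b probe A_66_P130720 (chr7:121670327-121670386, plus strand) lies upstream of the other 2 Pde3b probes.
Pde3b: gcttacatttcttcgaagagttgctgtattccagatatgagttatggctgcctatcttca

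The 3 Pde4d probes below are ordered 5′ to 3′ along the gene and are shown because upstream and downstream probes of this gene gave different values. A_55_P2010401 (chr13:110051079-110051138) is the most upstream, A_52_P589745 spans a splice junction between chr13:110530748 and chr13:110547805, and A_55_P2010396 (chr13:110741493-110741552) ends on a TAA triplet, the stop codon, in capitals. All 3 lie on the plus strand.
Pde4d, most upstream: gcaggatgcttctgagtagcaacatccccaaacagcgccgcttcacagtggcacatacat
Pde4d, junction: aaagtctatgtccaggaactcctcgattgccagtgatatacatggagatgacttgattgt
Pde4d, stop codon: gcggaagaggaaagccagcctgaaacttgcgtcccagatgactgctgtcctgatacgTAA

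The targeted gene was measured by 3 Mlxipl probes, and whether they lie in the deleted parts was not examined. At the brightest one, A_55_P2119957, log2 intensity was 14.08 to 14.29 in total ChREBP KO against 15.64 to 16.28 in total ChREBP WT, and 14.02 to 14.70 in ChREBPβ KO against 14.70 to 15.43 in ChREBPβ WT. Probe A_55_P2728555 was also lower in total ChREBP KO (10.73 to 10.89 against 11.22 to 11.78). It read 10.29 to 10.76 in ChREBPβ KO against 10.53 to 11.38 in ChREBPβ WT. Probe A_55_P2045158 overlapped between all groups. The fat cell genes Adipoq, Plin1 and Fabp4 were well above background on all 25 arrays. Markers of other organs were present on some arrays. Kidney tubule markers were high on ChREBPβ WT arrays 1, 3 and 7 and ChREBPβ KO array 2, and epididymis markers on total ChREBP WT arrays 2 (4.33) and 3 (1.74), against -0.04 to 0.69 on the other 5 arrays of that group. Liver markers ran from 0.93 to 4.51 in ChREBPβ WT, from -0.59 to 3.97 in ChREBPβ KO, from -4.42 to 1.47 in total ChREBP WT and from -4.80 to -3.63 in total ChREBP KO, given, as for the epididymis, as each array's mean deviation from the 25-array mean in log2 units. Values for the members without those arrays, leaving total ChREBP WT array 3 in (5 arrays left out) or out (6 arrays left out), and with the liver score in the fit are given where they changed a call. ChREBPβ KO array 4, whose epididymis score of 0.84 was the highest of its group, was kept in these fits.

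**Figure D1:**
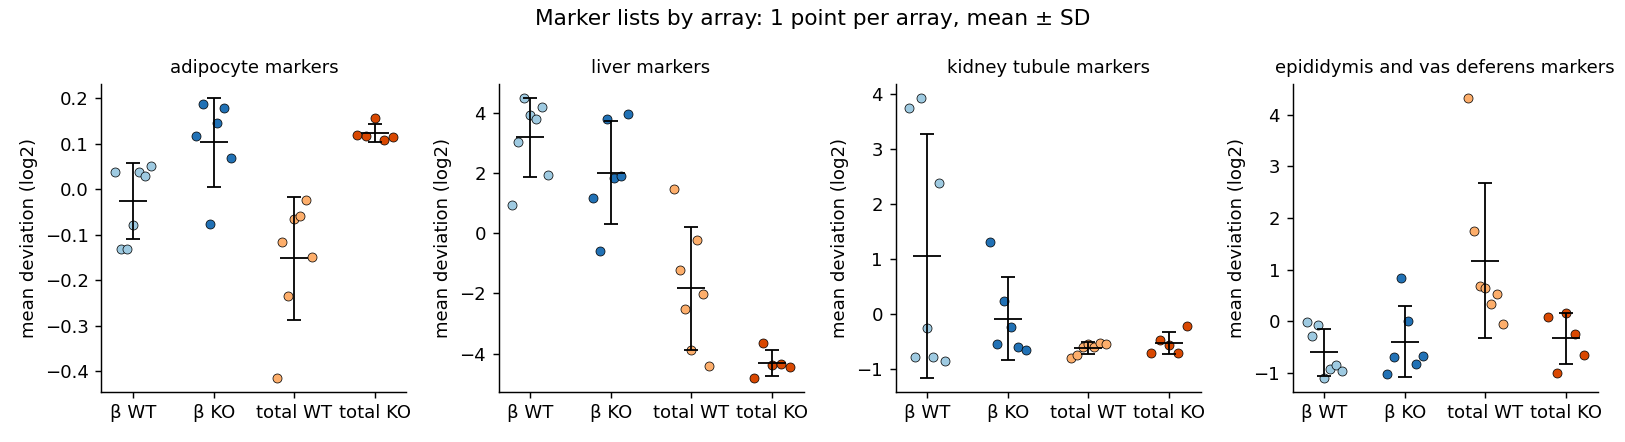
Mean deviation (log2) of the genes of 4 marker lists from their mean over the 25 arrays, with 1 point per array, by group, and bars for the mean ± SD. Adipocyte markers lay between 0.11 and 0.16 in total ChREBP KO and between -0.41 and -0.02 in total ChREBP WT, liver markers were higher in most arrays of the ChREBPβ line, and single arrays stood out for kidney and epididymis markers.

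All values below are log2 of the quantile-normalised median spot intensity. Differences are those of a limma model with group and wash batch, a batch that the labels name for each array, with 95% confidence intervals, and p-values were adjusted by Benjamini-Hochberg across the 39619 tested probes. Calls were made below an adjusted p of 0.05, counting each gene by its brightest tested probe. Levels of different probes are not compared, since probes differ in how well they bind. Overlap between groups was examined for the members only, and the share of all genes without overlap was not counted. In tissue RNA, fewer cells of a type and less RNA per cell cannot be told apart.

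In the total ChREBP line, 4 of the 8 genes rose in the knockout and 0 fell, with Pde4d lower at an unadjusted p of 0.0477. Adrb3, Pde3b, Prkar2b and Prkaca were the 4, and over all 25934 genes tested 5.75% were called higher and 3.62% lower. In the ChREBPβ line 0 of the 8 genes were called in limma, where 0.00386% of all genes were called higher and 0.00386% lower. At an unadjusted p under 0.05 the ChREBPβ comparison held 2 of the 8, Pde4b and Prkar2b, and 0 members were called with any of the other settings run. The difference between the 2 knockout effects was itself called for 2 members, Adrb3 and Pde3b, both higher, where 1.34% of all genes were called higher and 2.15% lower. With the replicate number as a block in place of the wash batch, Adrb3 alone was called. Between the wild types 1 member was higher in total ChREBP WT (Prkaca) and 2 were lower (Adrb3 and Prkar2b), beside 13.4% of all genes higher and 8.72% lower. Without the 6 arrays only Adrb3 was called there. The 4 comparisons share arrays, so their calls are not independent of each other.

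**Figure D2:**
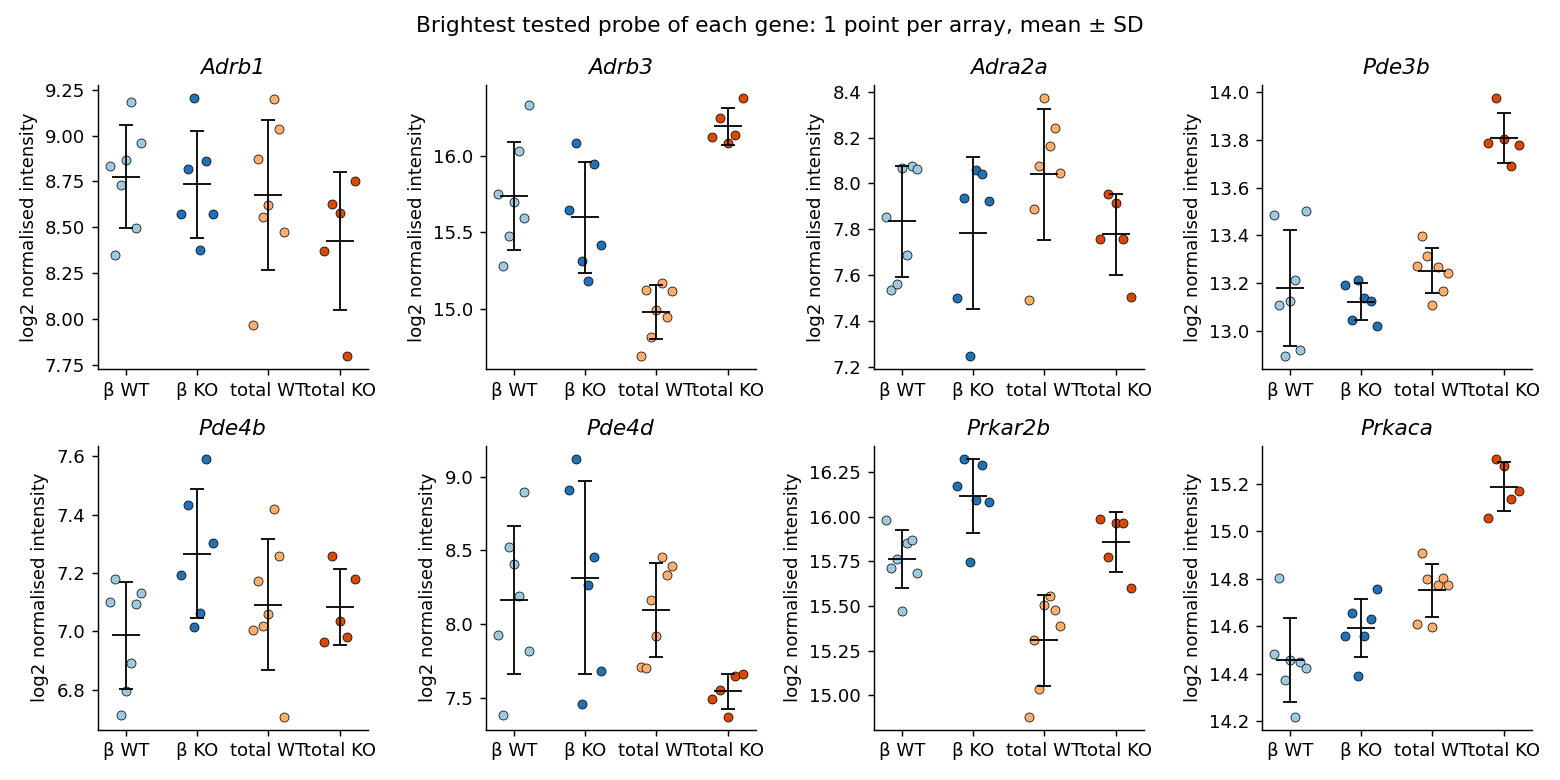
Log2 normalised intensity of the brightest tested probe of each gene on each of the 25 arrays, with 1 point per array and bars for the mean ± SD (7, 6, 7 and 5 arrays from left to right in each panel). The 5 total ChREBP KO arrays lie above all 7 total ChREBP WT arrays for Adrb3, Pde3b, Prkar2b and Prkaca and below all of them for Pde4d, whereas Adrb1, Adra2a and Pde4b overlap. The share of all genes whose groups do not overlap was not counted. The vertical axes do not start at 0 and differ between panels.

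Adrb3, the β3 receptor, showed the largest of the 8 differences in the total ChREBP line. At probe A_55_P1992849 (chr8:28336268-28336327, minus strand) the 5 total ChREBP KO arrays read 16.12, 16.25, 16.08, 16.14 and 16.38. Total ChREBP WT ran from 14.69 through a median of 14.99 to 15.17. Every knockout array stood above every wild-type array, by a wide gap. Adrb3 was 2.34-fold higher in total ChREBP KO (log2 difference 1.23, interval 0.89 to 1.56, SE 0.16, limma adjusted p = 1.67e-05). Within the 4 wash batches the difference was 1.29, 0.96, 1.32 and 1.22.

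In the ChREBPβ line Adrb3 ran from 15.28 through 15.70 to 16.33 in wild types and from 15.18 through 15.53 to 16.09 in knockouts. These groups overlapped almost fully. The fitted difference was -0.15 (interval -0.46 to 0.17, limma adjusted p = 0.842), and within wash batches it was -0.11, 0.80, -0.50 and -0.50. The batch with the opposite sign held a single array of each group. ChREBPβ WT array 2 was the lowest of its group and ChREBPβ KO array 3 the highest of its group. The total effect exceeded the ChREBPβ effect by 1.38 (interval 0.92 to 1.83, limma adjusted p = 0.000461).

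The order of Adrb3 group means was total ChREBP KO (16.19 ± 0.12 SD, n = 5), ChREBPβ WT (15.74 ± 0.35, n = 7), ChREBPβ KO (15.60 ± 0.36, n = 6) and total ChREBP WT (14.98 ± 0.18, n = 7). The middle 2 groups did not differ beyond their spread. The highest total ChREBP WT array was below the lowest ChREBPβ WT array, and the wild types differed by -0.76 (interval -1.06 to -0.45, limma adjusted p = 0.000875). The wild-type difference was -0.68, -0.16, -0.62 and -1.28 within wash batches, and it became -1.17 (limma adjusted p = 0.00467) with the liver marker score in the fit. Over all settings run it lay between -1.17 and -0.54, and the highest limma adjusted p was 0.0479, close to the threshold.

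The second Adrb3 probe, the one whose sequence is shown above, gave the same directions at a lower intensity. It read 11.72, 12.19, 11.70, 12.02 and 12.22 in total ChREBP KO and 10.74 through 10.91 to 11.05 in total ChREBP WT, again with no overlap. The difference was 1.08 (SE 0.19, limma adjusted p = 0.000476), and the total effect exceeded the ChREBPβ effect by 1.38 (limma adjusted p = 0.00205). Between wild types this probe gave -0.49 (limma adjusted p = 0.0432), with overlapping groups.

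Adrb1, the β1 receptor, was not called in any of the 4 comparisons. Its only probe (A_52_P322181, chr19:56799215-56799274) read 8.37, 8.63, 8.58, 7.80 and 8.75 in total ChREBP KO and 7.97 through 8.62 to 9.20 in total ChREBP WT. It ran from 8.35 through 8.84 to 9.18 in ChREBPβ WT and from 8.38 through 8.69 to 9.21 in ChREBPβ KO. All 4 groups overlapped. The total ChREBP difference was -0.24 (interval -0.66 to 0.18) and the ChREBPβ difference -0.02 (interval -0.43 to 0.38).

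Adra2a, the Gi-coupled α2A receptor, was also not called in any comparison. Probe A_55_P2021505 (chr19:54123363-54123422) read 7.76, 7.96, 7.91, 7.76 and 7.51 in total ChREBP KO against 7.49 through 8.08 to 8.37 in total ChREBP WT. It ran from 7.53 through 7.85 to 8.07 in ChREBPβ WT and from 7.25 through 7.93 to 8.06 in ChREBPβ KO. The groups overlapped, with a total ChREBP difference of -0.25 (interval -0.58 to 0.09, limma adjusted p = 0.435) and a ChREBPβ difference of -0.03 (interval -0.35 to 0.28). Among the 3 receptors, Adrb3 alone passed the test in the total ChREBP line, and the difference between receptors was not tested.

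Pde3b, which encodes the insulin-activated phosphodiesterase of fat cells, rose in total ChREBP KO at all 3 of its probes. At the brightest, A_55_P2032538 (chr7:121681370-121681429), the 5 knockout arrays read 13.79, 13.98, 13.81, 13.69 and 13.78. Total ChREBP WT ran from 13.11 through 13.27 to 13.40. The groups did not overlap, and the spread within each was narrow (SD 0.10 in both). The difference was 0.56, or 1.48-fold (interval 0.36 to 0.76, SE 0.09, limma adjusted p = 0.000375), and it was 0.62, 0.41, 0.56 and 0.53 within wash batches.

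In the ChREBPβ line Pde3b ran from 12.89 through 13.12 to 13.50 in ChREBPβ WT and from 13.02 through 13.13 to 13.21 in ChREBPβ KO, with all knockout arrays inside the range of the wild types. The difference was -0.06 (interval -0.24 to 0.13), and the total effect exceeded it by 0.62 (interval 0.35 to 0.89, limma adjusted p = 0.00712). That call was lost with the replicate block (0.58, limma adjusted p = 0.0511). In order, the group means were total ChREBP KO (13.81 ± 0.10 SD, n = 5), total ChREBP WT (13.25 ± 0.10, n = 7), ChREBPβ WT (13.18 ± 0.24, n = 7) and ChREBPβ KO (13.12 ± 0.08, n = 6). The lower 3 groups overlapped.

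The other Pde3b probes differed in detail. The upstream probe printed above read 9.001, 9.49, 9.16, 9.17 and 9.23 in total ChREBP KO and 8.39 through 8.76 to 8.99 in total ChREBP WT, with a difference of 0.50 (limma adjusted p = 0.0034) and a difference of effects of 0.61 (limma adjusted p = 0.021). The most downstream probe, A_55_P2151591 (chr7:121682700-121682759), gave 0.51 (limma adjusted p = 0.00311) with overlapping groups. Its difference of effects of 0.50 missed the threshold (limma adjusted p = 0.0681), and it alone of the 3 was called between the wild types, higher in total ChREBP WT (0.39, limma adjusted p = 0.00578).

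Pde4b, a cyclic AMP-specific phosphodiesterase, was not called in any comparison. At A_52_P423247 (chr4:102277888-102277947) it read 6.96, 7.26, 7.04, 6.98 and 7.18 in total ChREBP KO, inside the total ChREBP WT range of 6.71 through 7.06 to 7.42. The difference was 0.01 (interval -0.22 to 0.23). In the ChREBPβ line it ran from 6.71 through 7.09 to 7.18 in wild types and from 7.02 through 7.25 to 7.59 in knockouts, and 4 of the 6 knockout arrays stood above all wild-type arrays. That difference of 0.30 (interval 0.08 to 0.51) had an unadjusted p of 0.0088 and did not pass the correction (limma adjusted p = 0.38). A second tested probe, A_55_P2107542, gave 0.28 and did not pass either.

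The other 4 Pde4b probes were not tested. A_65_P01319 was well above background on all 25 arrays, with a raw median intensity of 331, but on too many arrays the software did not mark its spot as found. In the authors' series table, which holds it, its difference was 0.31 in the ChREBPβ line (limma adjusted p = 0.429) and 0.09 in the total ChREBP line. The remaining 3 were well above background on 0, 9 and 2 arrays, with median raw intensities of 18, 24 and 20 against local backgrounds of 19, 18 and 20, so no level was set for the transcripts they match.

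Pde4d, also a cyclic AMP-specific phosphodiesterase and one with many promoters, was lower in total ChREBP KO at its 3 downstream probes but passed the test at 2 of them. The brightest, A_51_P120990 (chr13:110743427-110743486), read 7.49, 7.55, 7.37, 7.65 and 7.66 in total ChREBP KO and 7.70 through 8.17 to 8.45 in total ChREBP WT. The groups did not overlap, but the nearest arrays almost met. The difference of -0.55 (interval -1.08 to -0.01) did not pass the correction (limma adjusted p = 0.237), and this probe had a wide spread in the ChREBPβ line, from 7.38 to 8.89 in wild types and from 7.46 to 9.12 in knockouts.

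The probe that ends on the stop codon fell by 0.60 (SE 0.16, limma adjusted p = 0.0193). Its 5 total ChREBP KO arrays read 6.56, 6.39, 6.71, 6.54 and 6.60, below the total ChREBP WT range of 6.86 through 7.07 to 7.55. The most downstream probe, A_65_P12530 (chr13:110745631-110745690), read 7.35, 6.72, 7.39, 7.43 and 7.27 against 7.51 through 7.87 to 8.20 and fell by 0.63 (SE 0.19, limma adjusted p = 0.0376). Within wash batches the stop codon probe gave -0.83, -0.15, -0.47 and -0.66.

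The 2 upstream Pde4d probes gave other values. The junction probe read 6.12, 5.68, 5.78, 5.95 and 6.02 in total ChREBP KO and 5.81 through 6.02 to 6.43 in total ChREBP WT, a difference of -0.11 (interval -0.45 to 0.22). The most upstream probe gave 0.04 (interval -0.17 to 0.26), at levels of 5.02 to 5.16 in knockouts and 4.87 to 5.27 in wild types. Both overlapped between groups. Both were also dim, with raw median intensities of 31.5 (most upstream) and 70 (junction) against local backgrounds of 17 and 18. The downstream probes had raw medians of 250, 197 and 125.5. Background was not subtracted, which can make a difference at a dim probe look smaller, and its part here was not tested. The difference between upstream and downstream probes was not tested, and 3 further Pde4d probes were well above background on 8, 1 and 0 of the 25 arrays.

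In the ChREBPβ line no Pde4d probe passed the test. The junction probe had the largest difference, 0.33 (interval 0.01 to 0.65, limma adjusted p = 0.523), which was -0.05, 0.20 and 0.35 in wash batches 1, 3 and 4 and larger in wash batch 2, which held 1 array of each group. The difference between the 2 knockout effects was -0.73, -0.69 and -0.68 at the 3 downstream probes (limma adjusted p = 0.401, 0.191 and 0.11).

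**Figure D3:**
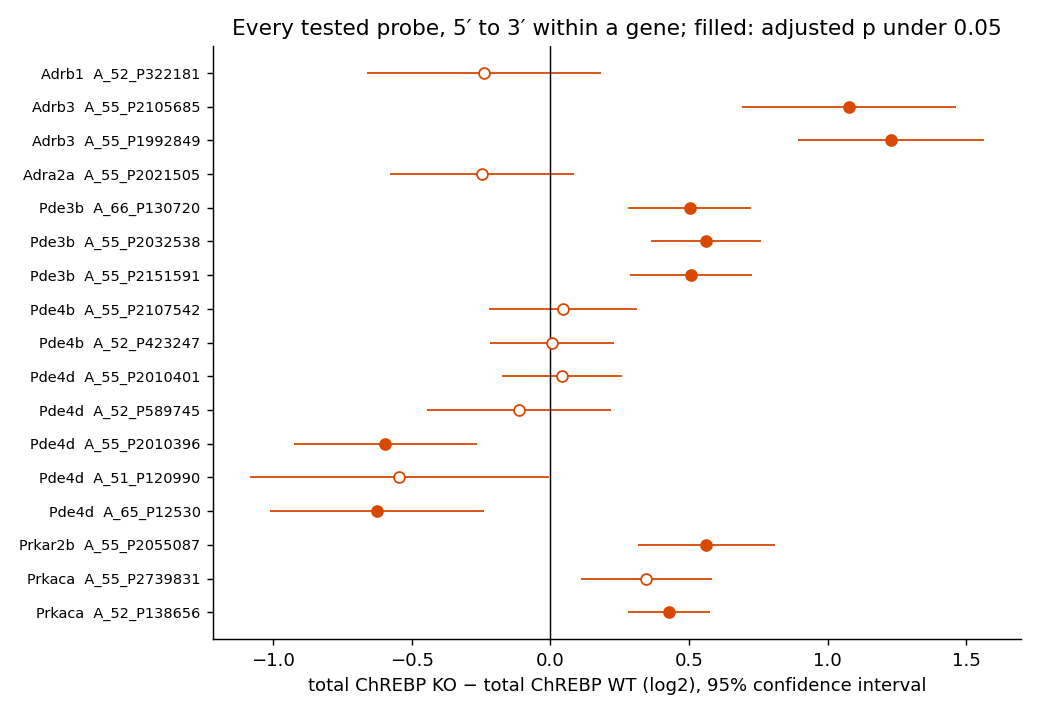
Fitted difference, total ChREBP KO minus total ChREBP WT (log2), of each of the 17 tested probes with its 95% confidence interval, ordered 5′ to 3′ within a gene, with filled points for an adjusted p under 0.05. Both Adrb3 and all 3 Pde3b probes were higher, and the Pde4d probes run from 0.04 and -0.11 at the upstream end to -0.60, -0.55 and -0.63 at the downstream end. The upstream probes were the dimmest of the tested Pde4d probes, and background was not subtracted.

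Prkar2b, the RIIβ regulatory subunit that predominates in fat cells, was higher in total ChREBP KO. Its only probe (A_55_P2055087, chr12:32643366-32643425, minus strand) read 15.99, 15.78, 15.97, 15.97 and 15.60. Total ChREBP WT ran from 14.88 through 15.39 to 15.56. The groups did not overlap, but the lowest knockout array barely exceeded the highest wild type. The difference was 0.56, or 1.48-fold (interval 0.31 to 0.81, SE 0.12, limma adjusted p = 0.00338). It was 0.60, 0.66 and 0.85 in wash batches 1, 2 and 4 and 0.08 in wash batch 3, which held the lowest knockout array, and it was 0.41 (limma adjusted p = 0.0588) with the liver marker score in the fit.

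Prkar2b was also higher on most arrays of ChREBPβ KO. It ran from 15.47 through 15.77 to 15.98 in ChREBPβ WT and from 15.75 through 16.13 to 16.33 in ChREBPβ KO, where 5 of 6 knockout arrays stood above all wild types. The difference of 0.37 (interval 0.13 to 0.60, unadjusted p = 0.00383) did not pass the correction over all probes (limma adjusted p = 0.336). It was positive in each wash batch, at 0.34, 0.61, 0.17 and 0.42. The difference between the 2 effects was 0.19 (interval -0.15 to 0.54, limma adjusted p = 0.752).

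The Prkar2b group means ran from ChREBPβ KO (16.12 ± 0.21 SD, n = 6) through total ChREBP KO (15.86 ± 0.17, n = 5) and ChREBPβ WT (15.76 ± 0.16, n = 7) to total ChREBP WT (15.31 ± 0.26, n = 7). Total ChREBP KO and ChREBPβ WT overlapped. The wild types differed by -0.46 (interval -0.68 to -0.23, limma adjusted p = 0.0045), and this call was lost without the arrays that carried kidney or epididymis signal (-0.25 without 5, limma adjusted p = 0.207, and -0.19 without 6, limma adjusted p = 0.399). With the liver marker score in the fit the difference was larger (-0.77, limma adjusted p = 0.0084).

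Prkaca, the main catalytic subunit of protein kinase A, rose in total ChREBP KO as well. At A_52_P138656 (chr8:86520153-86520212) the knockout arrays read 15.06, 15.31, 15.27, 15.14 and 15.17 and total ChREBP WT ran from 14.60 through 14.77 to 14.91. There was no overlap. The difference was 0.43, or 1.34-fold (interval 0.28 to 0.58, SE 0.07, limma adjusted p = 0.000318), with 0.52, 0.36, 0.38 and 0.36 within wash batches. A second probe, A_55_P2739831 (chr8:86518744-86518802, where its 60 bases span 59 of the build), gave 0.34 with overlapping groups and did not pass (limma adjusted p = 0.0641).

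In the ChREBPβ line Prkaca ran from 14.22 through 14.45 to 14.80 in wild types and from 14.39 through 14.60 to 14.76 in knockouts, all of them within the wild-type range. The difference was 0.13 (interval -0.01 to 0.28) and did not pass the test. The difference of effects, 0.29 (interval 0.09 to 0.50), had an unadjusted p of 0.007 and did not pass (limma adjusted p = 0.129). Total ChREBP WT exceeded ChREBPβ WT by 0.29 (limma adjusted p = 0.00255), and by 0.44 at the second probe (limma adjusted p = 0.00409), but with the liver marker score in the fit the first of these was 0.29 with a limma adjusted p of 0.118, and without the 6 arrays it was 0.31 with a limma adjusted p of 0.081.

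**Figure D4:**
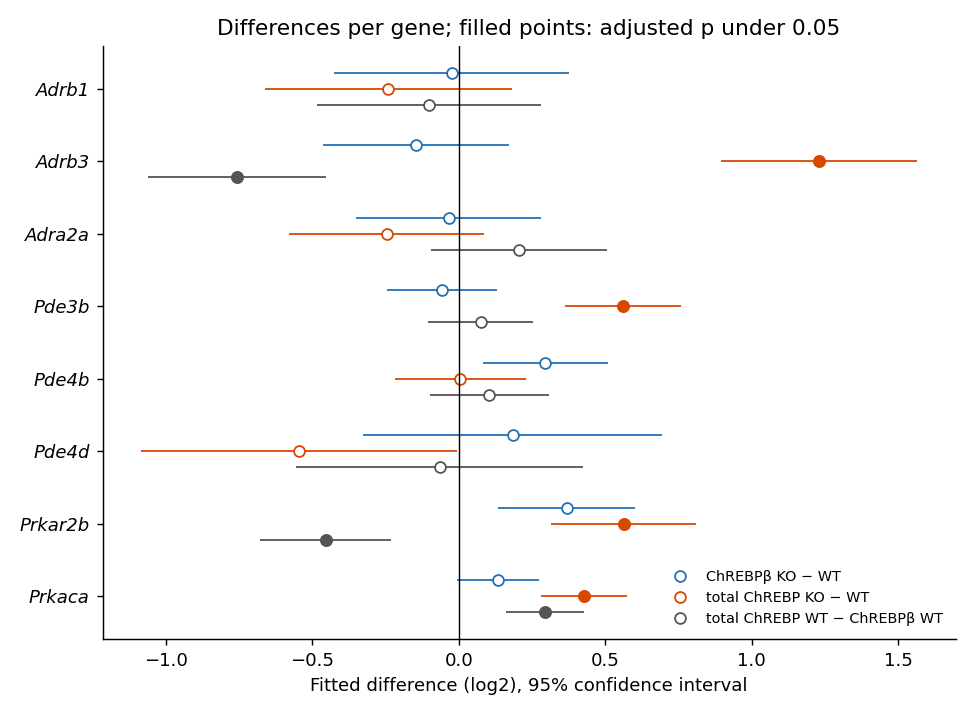
Fitted log2 difference of each gene, by its brightest tested probe, with its 95% confidence interval, for ChREBPβ KO minus WT, total ChREBP KO minus WT and total ChREBP WT minus ChREBPβ WT, with filled points for an adjusted p under 0.05. In the total ChREBP line 4 genes are filled, all to the right of 0, in the ChREBPβ line 0, and Adrb3 and Prkar2b lie left of 0 between the wild types.

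Some fat cell markers moved with these 4 genes. Of 10 adipocyte markers, 4 rose in total ChREBP KO and 0 fell, beside 5.75% and 3.62% of all genes. The 4 were Lpl (0.55), Plin4 (0.53), Plin1 (0.41) and Cidec (0.40). Adipoq, Fabp4, Pparg, Retn, Cfd and Lep were not called. The list median was 0.28 against 0.02 over all genes. The mean adipocyte score lay between 0.11 and 0.16 in total ChREBP KO, above the range of -0.41 to -0.02 in total ChREBP WT. Adipoq read 17.69 to 17.81 in knockouts and 17.23 to 17.74 in wild types. The liver list had 1 of 7 genes called lower (Fgb), and the epididymis list, with 2 of 7 genes tested, ran from -0.04 to 4.33 in total ChREBP WT and from -1.01 to 0.17 in total ChREBP KO. Without the 5 arrays with kidney or epididymis signal, the 4 differences were 1.16 for Adrb3, 0.56 for Pde3b, 0.48 for Prkar2b and 0.41 for Prkaca, all still called. Without 6 arrays they were 1.18, 0.60, 0.43 and 0.40, again all called, whereas Plin4 (0.41, limma adjusted p = 0.0644) and Fgb were not. The part of the fat cell share of the tissue in these differences was not tested.

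Promoters of the members were searched for the E-box CACGTG, the core of the element that ChREBP and other factors of its family bind, and for the cyclic AMP response element TGACGTCA and its core TGACG, on both strands. RefSeq entries on GRCm38.p6, each holding 250 bases before and 50 after a transcript start, were found for 6 of the 8 genes, with 11 promoters in all. CACGTG was present in 3 of the 11, for Prkaca, Prkar2b and Adra2a, and in 7.15% of all 32851 promoters of this length. TGACGTCA was present in 0 of the 11 and in 1.79% of all, and TGACG, which it contains, in 4 of the 11 and in 20.8% of all. The E-box with 40 bases on each side is shown for the 3 genes, CACGTG in capitals, because 2 of them rose in total ChREBP KO. The windows are chr8:83972753-83972838 on the plus strand for Prkaca, chr12:32061312-32061397 on the minus strand for Prkar2b and chr19:54045139-54045224 on the plus strand for Adra2a.
Prkaca: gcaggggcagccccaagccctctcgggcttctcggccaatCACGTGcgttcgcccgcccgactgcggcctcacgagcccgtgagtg
Prkar2b: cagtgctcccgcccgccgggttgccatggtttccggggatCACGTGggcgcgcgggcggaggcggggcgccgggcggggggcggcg
Adra2a: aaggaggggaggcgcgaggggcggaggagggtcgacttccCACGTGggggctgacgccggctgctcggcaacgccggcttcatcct

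A match of letters is a description of the promoter only. No promoter is shown for Adrb3 and Pde3b, and Adra2a holds the motif without passing the test in any comparison.

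The rest of the pathway was followed through 86 further genes in 9 lists, of which 85 were tested. In total ChREBP KO 6 of them rose and 2 fell, in ChREBPβ KO 0 were called, and between the wild types 14 were higher and 7 lower in the total ChREBP line. These are 7.06% and 2.35% of the 85 in total ChREBP KO, beside 5.75% and 3.62% of all genes, and 16.5% and 8.24% between the wild types, beside 13.4% and 8.72% of all genes, so the pathway's shares were near those of the array. Without the 6 arrays the counts were 5 and 2 in total ChREBP KO and 5 and 3 between the wild types. Of the genes named from these lists, Grk5 then lost its call in total ChREBP KO (limma adjusted p = 0.0927), and Pde11a, Akap8, Akap10, Lipe, Abhd5, Fos, Nr4a1 and Pck1 lost theirs between the wild types. The difference between the 2 knockout effects was called higher for 1 and lower for 2. At an unadjusted p under 0.05 the ChREBPβ comparison held between 0 and 3 genes of each list.

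Among receptors, 0 of the 6 other adrenergic receptor genes were called in either knockout. Adra1b, an α1 receptor, differed between the wild types, lower in total ChREBP WT (-1.35, limma adjusted p = 0.00378). Of 13 G proteins and receptor regulators, 1 rose and 2 fell in total ChREBP KO, beside 5.75% and 3.62% of all genes. Rgs16, which speeds the shut-off of Gi, fell by 1.67 (SE 0.50, limma adjusted p = 0.0378), and the receptor kinases moved apart, with Grk6 at -0.61 (limma adjusted p = 1.05e-06) and Grk5 at 0.60 (limma adjusted p = 0.0224). Grk6 was also called for the difference between knockout effects (-0.53, limma adjusted p = 0.000793).

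Of 8 adenylyl cyclases tested, which make cyclic AMP, 0 were called in either knockout, and Adcy3 was the higher in total ChREBP WT of the wild types (0.75, limma adjusted p = 0.000108). Of 13 other phosphodiesterases that cleave cyclic AMP, Pde1a, a calcium-activated form, rose in total ChREBP KO (0.51, limma adjusted p = 0.0261), and Pde11a was higher in total ChREBP WT (1.03, limma adjusted p = 0.0475). Among 7 other kinase subunits and inhibitors 0 were called in either knockout, with a median of 0.00 in the total ChREBP line. The inhibitor gene Pkig was lower in total ChREBP WT (-0.39, limma adjusted p = 0.000501). Of 11 anchoring proteins, which tether the kinase, 0 were called in either knockout, and Akap8 (0.34) and Akap10 (0.25) were higher in total ChREBP WT.

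Downstream of the kinase, 2 of 11 genes known to be induced by cyclic AMP rose in total ChREBP KO and 0 fell. They were Dio2, which encodes the deiodinase that activates thyroid hormone (2.62, SE 0.39, limma adjusted p = 8.28e-05), and Pck1, the glyceroneogenic enzyme of fat cells (2.44, SE 0.32, limma adjusted p = 2.08e-05). The list median was -0.16, against 0.02 over all genes, of which 5.75% were called higher and 3.62% lower. Pck1 was also called for the difference between the 2 knockout effects (2.48, limma adjusted p = 0.00152), whereas Dusp1, an early-response phosphatase gene, was lower in that comparison (-1.06, limma adjusted p = 0.0243). Without the 6 arrays both missed the threshold (limma adjusted p = 0.0542 and 0.129), and Dio2 passed it (2.48, limma adjusted p = 0.0257). Between the wild types 5 of these 11 genes were higher in total ChREBP WT and 1 was lower, with Fos at 2.52, Nr4a1 at 1.62 and Pck1 at -1.45, where 13.4% of all genes were higher and 8.72% lower. Without the 6 arrays 3 were higher and 0 lower. Brown fat markers moved with them in part. Of 6, Cidea (2.01), Cox8b (1.31) and Ppargc1a (1.13), which is also in the cyclic AMP list, were called higher in total ChREBP WT and 0 lower, with a list median of 1.02, and without the 6 arrays Ppargc1a alone was called. Ucp1, the defining gene of brown fat, was 0.18 (limma adjusted p = 0.626). Elovl3 went the other way, at -1.96 (limma adjusted p = 0.0743), and was -2.22 without the 6 arrays. The brown fat score ran from -0.30 to 1.01 in total ChREBP WT and from -0.66 to -0.03 in ChREBPβ WT, and its part in these differences was not tested. Of the 6, Dio2 alone was called in total ChREBP KO.

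Of 5 proteins that the kinase acts on or releases in lipolysis, Plin1, which coats the lipid droplet, rose in total ChREBP KO (0.41, limma adjusted p = 0.00303). Lipe, hormone-sensitive lipase, and Abhd5, the activator of adipose triglyceride lipase, exceeded their ChREBPβ WT levels in total ChREBP WT (by 0.50 and 0.98). Of 11 other effectors, Sik3, a kinase inhibited by protein kinase A, rose in total ChREBP KO (0.33, limma adjusted p = 0.0174). Rapgef4, a cyclic AMP-activated exchange factor, was lower in total ChREBP WT (-1.27, limma adjusted p = 0.00665), and Sik1, a gene induced through the pathway, was higher (0.73, limma adjusted p = 4.58e-05).

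Of 5 sympathetic nerve markers, Th, which encodes the rate-limiting enzyme of noradrenaline synthesis, was lower in total ChREBP KO (-0.86, limma adjusted p = 8.4e-07) and, between the wild types, higher in total ChREBP WT (0.74, limma adjusted p = 6.44e-06), the reverse of Adrb3 in both. Th was the only 1 of the 5 called in total ChREBP KO, where the list median was -0.13. Of all genes, 5.75% were called higher and 3.62% lower in that comparison. Between the wild types 2 of the 5 were called higher and 0 lower, beside 13.4% and 8.72% of all genes. Without the 6 arrays 1 of the 5 was called higher there. The list score ran from -0.07 to 1.21 in total ChREBP WT and from -0.20 to 0.03 in total ChREBP KO, so the groups overlapped. It was highest on total ChREBP WT arrays 2 (1.21) and 3 (0.71), the arrays with the highest epididymis scores, and at most 0.11 on the other 5. Th itself read 9.15 and 9.16 on those 2 arrays and 9.07 to 9.39 on the other 5, against 8.13 to 8.54 in total ChREBP KO. Without the 6 arrays Th kept both calls (-0.88, limma adjusted p = 0.000113, and 0.71, limma adjusted p = 0.00416). The relation of these markers to the members was not tested.

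The genes most like each member were taken as the 2 with the highest Pearson correlation over the 25 arrays after group means were removed, among 17745 named genes. The highest values were those of Usp40 with Pde4d (0.91), Mospd1 with Adrb3 (0.91) and Il17d and Arhgdia with Prkar2b (both 0.90). Adrb3 was next most like Slc1a3 (0.87), Pde4d most like Khsrp after Usp40 (0.89), Pde3b like Snrnp200 (0.87) and Cdk19 (0.86), and Adra2a like Xpnpep2 and Zfp60 (both 0.83). Prkaca with Cs (0.77), Pde4b with Epor (0.76) and Gipr (0.74) and Adrb1 with Sertad3 (0.73) and Kmt2d (0.72) were less alike. These arrays share wash batches and differ in the organ markers given above, so these values are a description only.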

How the data were processed

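Cy3-labelled cRNA of pgWAT was hybridised to Agilent mouse arrays by the authors, and spots were measured with Agilent Feature Extraction 10.10.1.1, per the submitters' processing notes. The deposited scanner files give the median spot intensity, its local background and flags. The authors also deposited a series table of log2 values for 40561 probes, which correlated with the values rebuilt here at 0.99999 or more and moved no member difference by more than 0.05. It has 18 of the 24 member probes and was used as an alternative.

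Median raw intensity per array was 84 to 127 over a local background of 15 to 22, and the software placed 73.0% to 77.9% of the spots well above background. The number of arrays limits the precision. The study kept spots found, positive and well above background on 26 of 32 arrays or on 6 of at least 1 group. Its thresholds were scaled here to 21 of 25 arrays or to a like share of at least 1 group (6 arrays of either wild type, 5 of ChREBPβ KO or 4 of total ChREBP KO). Outlier-flagged values were set missing, log2 values were quantile-normalised and probes of 1 identifier were merged by their median. One limma 3.58.1 model (R 4.3.3) held the 4 groups and the 4 wash batches, each of which held all groups. The script was tested on simulated data. Gene names are those of the array design. Genes were counted by the tested probe with the highest mean. Named genes were the members, up to 3 called genes of each pathway list by size of difference, marker genes of moved lists, and the 2 most correlated genes per member. Th and the brown fat genes were chosen after its values were seen. The members and lists were chosen with earlier results of these data known. Alternatives were the series table, processed signal scaled to the 75th percentile, normexp, no filter, no wash batch, slide as a random block, the replicate number as a block, each line alone and leaving out each array, and, after seeing the data, leaving out 5 or 6 arrays with other-organ signal and a liver score covariate. Probe positions are mm9 as in the array files, and promoters are RefSeq sequences on GRCm38.p6. A gene among those most like Prkaca is not reported here.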

Additional observations from a re-analysis of the deposited data

Results flagged for a closer look

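For Adrb3 the knockout effect differed between the lines. It was 1.23 with both isoforms absent and -0.15 with ChREBPβ alone absent, and the total effect exceeded the ChREBPβ effect by 1.38 (SE 0.22, limma adjusted p = 0.000461), with all 5 total ChREBP KO arrays above all 7 total ChREBP WT arrays.

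For Pde3b the effects were 0.56 and -0.06, and the total effect exceeded the ChREBPβ effect by 0.62 (SE 0.13, limma adjusted p = 0.00712; 0.58 and adjusted p = 0.0511 with the replicate block), again with all 5 knockout arrays above all 7 wild types. The share of all genes with no overlap between these knockout and wild-type arrays was not counted. The lines differ also in their wild types and in the organ markers on their arrays, and the part of either was not tested.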

How the results depend on the processing

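With the settings listed in the methods, the 4 knockout calls in the total ChREBP line held for Adrb3 (1.03 to 1.30), Pde3b (0.51 to 0.60) and Prkaca (0.37 to 0.45). Prkar2b (0.41 to 0.68) lost its call with the liver covariate (0.41), and Pde4d gained one where the line was fitted alone (-0.52, limma adjusted p = 0.0255). Member calls were 0 in the ChREBPβ line in all 36 alternatives. Between the wild types, Prkar2b lost its call without the 5 (-0.25) or 6 arrays (-0.19) and Prkaca with the liver covariate (0.29) or without the 6 arrays (0.31), which left 1 member called. The cause was not tested for any of these. Over all probes, the ChREBPβ count was 2 (3649 at an unadjusted p under 0.05 in limma) and 0 with the series table, the processed signal, no filter, no wash batch, the 2 groups alone, the 5 or 6 arrays left out or the liver covariate. It ran from 0 to 78 on leaving out single arrays, the highest without ChREBPβ KO array 4. With the liver covariate the total ChREBP count was 2252 instead of 3546. The wild-type count of 8741 became 3840 without the 5 arrays, 2772 without the 6 and 2681 with the liver covariate.

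Only differences that had not passed the test changed sign. Adrb1 was 0.0025 with normexp and Adra2a 0.0049 without the 6 arrays in the ChREBPβ line. Pde4b in the total ChREBP line was -0.0243 with the processed signal, -0.0030 with normexp, -0.0076 with no wash batch, -0.0079 with the line alone and -0.0062 or -0.0088 without the 5 or 6 arrays. Between the wild types, Pde4d was 0.1531 or 0.2825 without the 5 or 6 arrays, Pde3b -0.0273 without the 6, and Adra2a -0.1581 and Pde3b -0.0350 with the liver covariate. The difference between effects was -0.0092 for Prkar2b without the 6. Leaving out single arrays gave ranges across 0 in the ChREBPβ line for Adrb1 (-0.1310 to 0.1077), Adra2a (-0.0939 to 0.0743), Pde3b (-0.1077 to 0.0006) and Pde4d (-0.0559 to 0.3838), in the total ChREBP line for Pde4b (-0.0646 to 0.0522), and between the wild types for Adrb1 (-0.1952 to 0.0208) and Pde4d (-0.2077 to 0.0387).

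The replicate numbers did not pair the arrays. Deviations of same-numbered arrays correlated at -0.43 to 0.38 in the ChREBPβ line, -0.23 to 0.14 in the total ChREBP line and -0.13 to 0.27 between the wild types. With the replicate block in place of the wash batch, 0 probes were called in the ChREBPβ line, 762 instead of 1284 for the difference between knockout effects, and 1 member instead of 2 for that difference, since Pde3b stood at 0.58 (limma adjusted p = 0.0511). Adrb1 in the ChREBPβ line was 0.0149 and Pde4b in the total ChREBP line -0.0120 in that fit.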
